A study of Mus musculus with 6 samples.

Results

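The Tudor domain proteins of germ granules were examined as 10 genes, chosen by name: *Tdrd1*, *Tdrd3*, *Tdrd5*, *Tdrd6*, *Tdrd7*, *Tdrd9*, *Tdrd12*, *Tdrkh*, *Stk31* and *Rnf17*. Each matched a single row among the 54532 genes of the table, and all 10 passed the filter on low values. RNA had been sequenced from STRA8+ germ cells of mouse testis, with 3 libraries of the Control group, whose genotype is labelled Cre, and 3 libraries of conditional knockout (cKO) cells, labelled *Srsf1* knockout. SRSF1 is a splicing factor of the SR family, and STRA8 is induced by retinoic acid in germ cells that differentiate and enter meiosis. The Cre driver, the age of the mice and whether animals were pooled are not given in the sources used here. The labels number the libraries 1 to 3 in both groups without saying that they come from separate animals, so the p-values measure the spread between these libraries, which may be technical.

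A Tudor domain is a small barrel-shaped fold that binds methylated residues on partner proteins. In germ cells, the extended Tudor domains of the TDRD family bind symmetrically dimethylated arginines near the ends of PIWI proteins, which carry the PIWI-interacting small RNAs (piRNAs) that silence transposons. The TDRD proteins thereby hold PIWI proteins, helicases and RNA together in cytoplasmic granules without a membrane, namely the intermitochondrial cement of fetal germ cells and spermatocytes and the chromatoid body of spermatids.

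Of the 10 genes, 6 fell and 0 rose in cKO cells. *Tdrd6*, which encodes a scaffold of the chromatoid body, fell to 1.23% of its Control mean. *Tdrd7*, needed for chromatoid body architecture, fell to 52.2% and *Tdrd5*, which acts in piRNA processing and chromatoid body assembly, to 50.6%. *Tdrd3*, *Tdrd12* and *Tdrd1* fell to between 64.3% and 78.9% of the Control mean, and *Tdrd9*, *Tdrkh*, *Stk31* and *Rnf17* did not pass the test. In these bulk libraries, fewer cells of a type and less RNA per cell cannot be told apart. A gene was called changed at an adjusted p of at most 0.05 in limma, on log2(FPKM + 1) with Benjamini-Hochberg adjustment over 15451 genes, where FPKM is the number of fragments per kilobase of a gene after scaling to the size of its library. Among these 15451 genes, 34% were called in either direction, 22.2% as lower and 11.8% as higher. The unadjusted p was also above 0.05 for every member with a higher cKO mean, namely *Tdrkh*, *Stk31* and *Rnf17*. Limma-voom on the recovered fragments also called 0 members higher, whereas quantile normalization called 1, *Tdrkh* (log2 fold change 0.29, limma adjusted p = 0.030). The median log2 fold change was -0.38 over the 10 genes and -0.0082 over all genes tested.

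In the Control libraries *Srsf1*, the deleted gene, stood at 84.7, 45.2 and 51.9 FPKM, and in the cKO libraries at 5.08, 4.94 and 5.17 FPKM. Between 14447887 and 17310353 fragments per library had been counted on genes. *Stra8*, the gene that names the labelled cells, lay between 222.1 and 261.7 FPKM in Control and between 242.1 and 312.7 FPKM in cKO libraries. The 8 markers of differentiating spermatogonia to which it belongs summed to 652.7 to 681.4 FPKM in Control and 683.3 to 747.7 FPKM in cKO libraries, without overlap, and 1 of them was called, *Dmrtb1*, which fell (log2 fold change -1.35, limma, adjusted p = 3.0e-04). The sums of 8 spermatogonia markers overlapped (41.7 to 53.2 and 44.6 to 51.8 FPKM), and of the 7 tested *Id4* was called lower and *Ret* higher. The Control libraries also held RNA of later germ cells. The summed level of 10 spermatid markers was 2606 to 8707 FPKM in Control libraries, highest in Control replicate 2, against 7.34 to 9.84 FPKM in cKO libraries, and all 10 were called lower. The summed level of 10 pachytene spermatocyte markers was 829.5 to 1003 FPKM in Control and 135.5 to 158.6 FPKM in cKO libraries, and 9 of 10 were called lower. For 10 early prophase markers the sums overlapped, with 868.5 to 1173 FPKM in Control and 903.2 to 1187 FPKM in cKO libraries. Of these markers 2 were called lower, *Spo11* (log2 fold change -1.01, limma adjusted p = 0.0050) and *Rec8* (-0.56, limma adjusted p = 0.0089).

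In Control cells the group means of the 10 genes spanned an 18.5-fold range of FPKM, which is a scale per length of gene. *Stk31* led with 71.0 ± 4.60 FPKM (SD, n = 3), followed by *Tdrd9* with 48.5 ± 2.73 FPKM, and the libraries of these genes did not overlap. *Tdrd7*, *Rnf17* and *Tdrd1* followed with 41.2, 39.8 and 36.0 FPKM, and the order of *Tdrd7* and *Rnf17* lay within the spread of their libraries. The next levels were those of *Tdrkh* at 24.8, *Tdrd6* at 23.1 and *Tdrd12* at 19.9 FPKM, where each neighbour overlapped the next. *Tdrd5* at 12.6 and *Tdrd3* at 3.84 FPKM were the lowest, each below all libraries of the gene above it. In cKO cells *Stk31* was still first, at 74.1 ± 11.5 FPKM, whereas *Tdrd6* moved from rank 7 to rank 10 and *Tdrd7* from rank 3 to rank 6. The summed FPKM of the 10 genes was 311.1 to 336.4 in Control and 253.6 to 271.0 in cKO libraries, so that the groups did not overlap. The share of *Tdrd6* in that sum was 6.39% to 8.05% in Control and 0.0856% to 0.128% in cKO libraries.

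**Figure D1:**
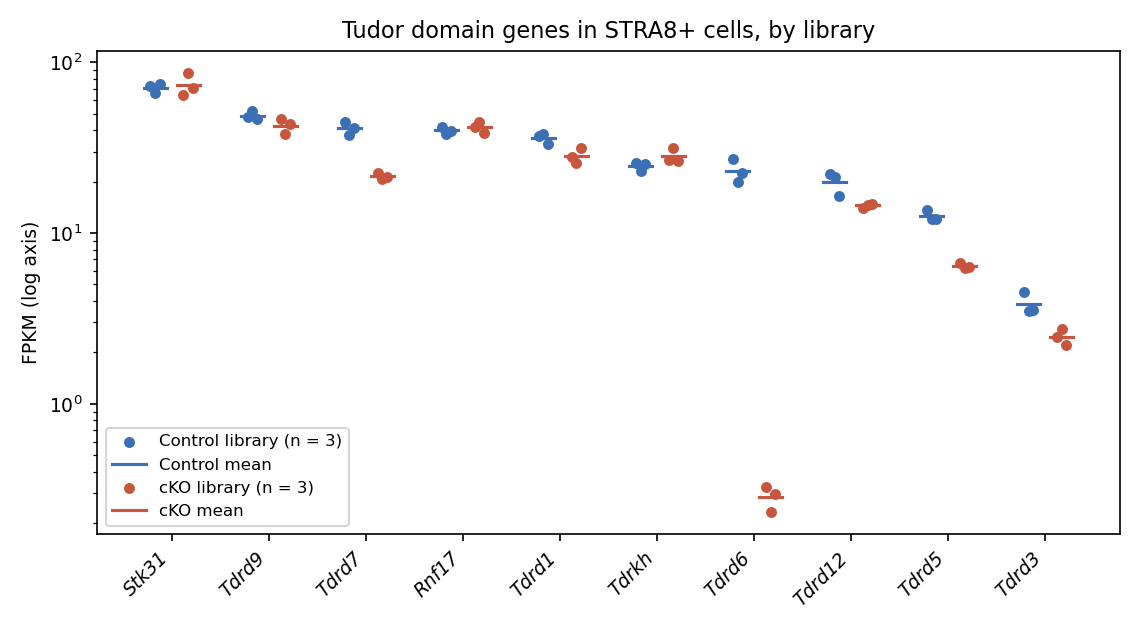
FPKM of the 10 Tudor domain genes on a log axis, with a point for each of the 3 Control and 3 cKO libraries and a line at each group mean, ordered by the Control mean. *Tdrd6* dropped from 19.9 to 27.1 FPKM in Control to 0.232 to 0.324 FPKM in cKO libraries, while *Stk31* and *Rnf17* overlapped between the groups.

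The chromatoid body proteins were described first. *Tdrd6* (ENSMUSG00000040140) is located on chromosome 17 (GRCm38, minus strand, 43615335 to 43630299) and has 3 protein-coding transcripts among 4 in GENCODE M21. In the order of the replicate numbers, its level was 27.1, 19.9 and 22.3 FPKM in Control and 0.324, 0.232 and 0.298 FPKM in cKO libraries. Values of the other genes are given in the same order. The groups lay far apart, the lowest Control library being 61.3 times the highest cKO library. These levels rested on 2151 to 3148 fragments per Control library and on 24 to 36 fragments per cKO library. The ratio of the group means was 81.0, and the log2 fold change was -4.22 (standard error 0.13, limma adjusted p = 2.8e-06), which understates the ratio because 1 FPKM was added before taking logarithms. Of all genes tested, 175 had a log2 fold change at or below that of *Tdrd6*, itself included.

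Between the groups *Tdrd6* fell, as did the summed pachytene and spermatid markers, and the part of these stages in its fall was not tested. Within the Control group, Control replicate 2 was the lowest library for *Tdrd6* and the highest for both the summed spermatid and the summed pachytene markers. These sums differed 3.34-fold (spermatid) and 1.21-fold (pachytene) among Control libraries, against 1.36-fold for *Tdrd6*. In cKO libraries *Tdrd6* was at 1.01% to 1.41% of its Control mean, the summed spermatid markers at 0.158% to 0.211% and the summed pachytene markers at 14.7% to 17.2%. Single markers of both lists lay on either side of *Tdrd6*, whose log2 fold change was -4.22. The log2 fold changes ran from -7.55 (*Ldhc*) to 0.014 (*Mybl1*) for pachytene markers. For spermatid markers they ran from -9.52 (*Tnp2*) to -2.79 (*Acrv1*). Without Control replicate 2 the log2 fold change of *Tdrd6* was -4.32.

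**Figure D2:**
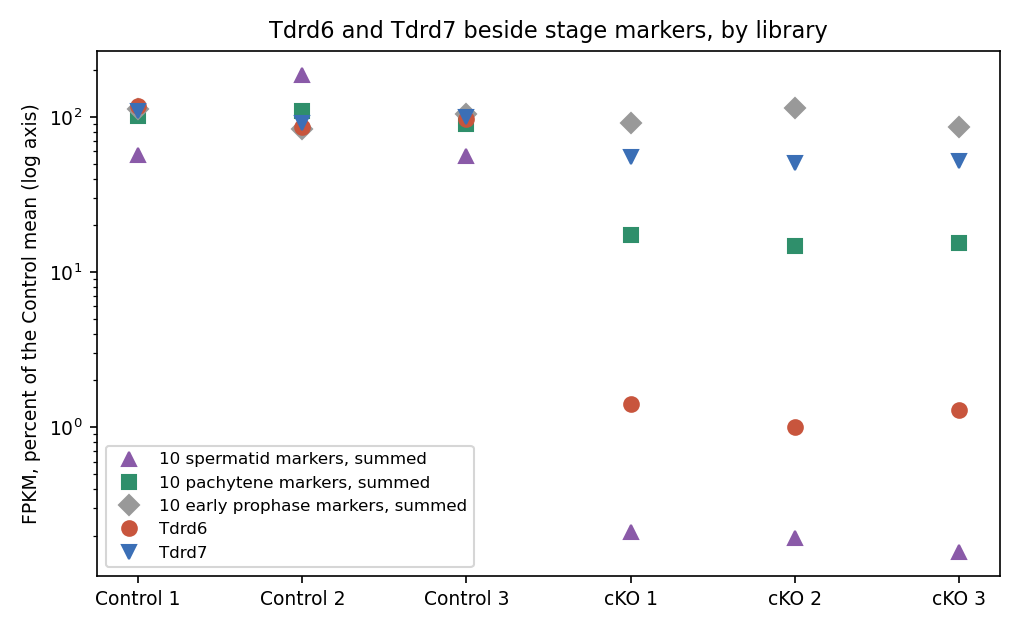
*Tdrd6*, *Tdrd7* and the summed FPKM of 3 lists of 10 stage markers in each of the 6 libraries, as a percentage of the Control mean on a log axis. In cKO libraries *Tdrd6* lies at 1.01% to 1.41% and *Tdrd7* at 50.4% to 54.8%. The sums lie at 14.7% to 17.2% for pachytene, 0.158% to 0.211% for spermatid and 86.5% to 114% for early prophase markers. Single markers differ widely from these sums.

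*Tdrd7* (ENSMUSG00000035517; chromosome 4, plus strand, 45965334 to 46034761) also limits the activity of LINE-1 elements in male germ cells. It had 44.7, 37.7 and 41.2 FPKM in Control libraries and 22.6, 20.7 and 21.2 FPKM in cKO libraries. The cKO libraries lay close together and below every Control library. The log2 fold change was -0.90 (standard error 0.082, limma adjusted p = 2.4e-04), and it was called lower in all 15 alternative settings.

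*Tdrd5* (ENSMUSG00000060985; chromosome 1, minus strand, 156255296 to 156303664) encodes a protein with Tudor and LOTUS domains. It had 13.6, 12.1 and 12.1 FPKM in Control libraries against 6.67, 6.20 and 6.32 FPKM in cKO libraries. As for *Tdrd7*, the groups were separated, with the lowest Control library 1.82 times the highest cKO library. The log2 fold change was -0.88 (standard error 0.085, limma adjusted p = 3.1e-04), and the call was kept in all 15 alternative settings. Of the 100-base windows of its transcripts, 1.08% also occur in *4930518J20Rik* on the other strand, and it was not stated whether the counting used strand.

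Among the proteins of the intermitochondrial cement, *Tdrd1* (ENSMUSG00000025081; chromosome 19, plus strand, 56826209 to 56870012) encodes a partner of PIWIL2. It had 37.2, 37.7 and 33.1 FPKM in Control and 28.0, 25.8 and 31.4 FPKM in cKO libraries. The groups did not overlap, but Control replicate 3 and cKO replicate 3 were close, at a ratio of 1.06. The log2 fold change was -0.33 (standard error 0.094, limma adjusted p = 0.033).

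*Tdrd12* (ENSMUSG00000030491; chromosome 7, minus strand, 35469098 to 35537745) encodes a helicase-like Tudor protein needed for the secondary piRNAs of PIWIL4. It had 22.0, 21.3 and 16.5 FPKM in Control libraries and 14.0, 14.7 and 14.8 FPKM in cKO libraries. Control replicate 3 was nearer to the cKO libraries than to the other Control libraries. The log2 fold change was -0.42 (standard error 0.12, limma adjusted p = 0.029).

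*Tdrd3* (ENSMUSG00000022019; chromosome 14, plus strand, 87416639 to 87545504) encodes a widely expressed Tudor protein that reads methylated arginine on histones and works with topoisomerase TOP3B. It had 4.49, 3.49 and 3.53 FPKM in Control libraries and 2.46, 2.74 and 2.20 FPKM in cKO libraries. The lowest level among the Control libraries was 1.27 times the highest among the cKO libraries, on 203 to 449 fragments per library. The log2 fold change was -0.48 (standard error 0.13, limma adjusted p = 0.031).

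The calls of *Tdrd1*, *Tdrd12* and *Tdrd3* lay near the threshold, at falls of less than that of *Tdrd5*. *Tdrd1* was called in 5 of 15 alternative settings, *Tdrd12* in 7 of 15 and *Tdrd3* in 7 of 14, all with cKO below Control, and the limma adjusted p ranged over these settings from 0.031 to 0.10, from 0.0059 to 0.093 and from 0.015 to 0.40. Of the 6 members called lower, 3 were called without Control replicate 1 and 3 without cKO replicate 1, and 4 or 5 without any other library.

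**Figure D3:**
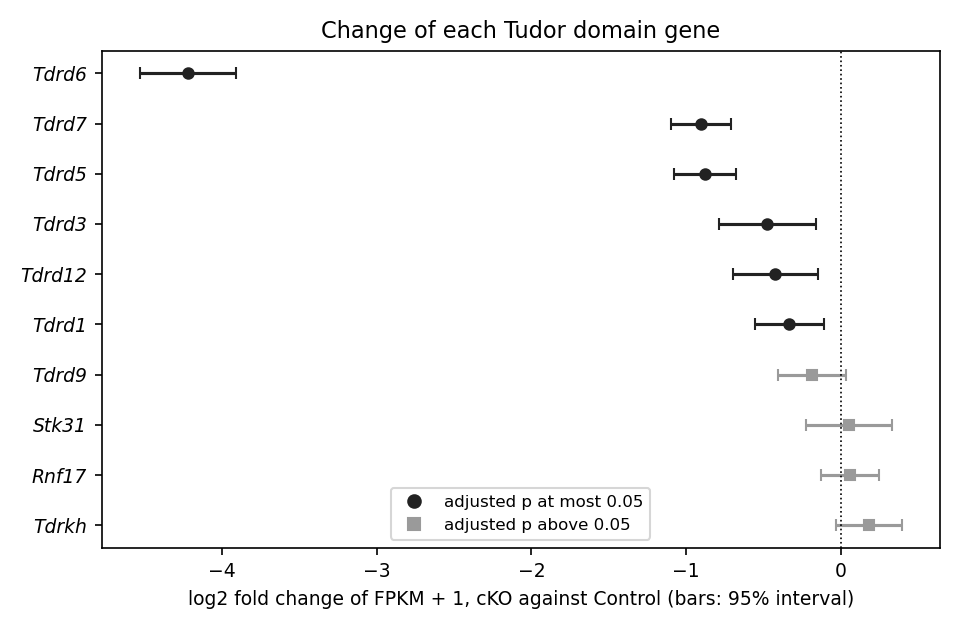
Log2 fold change of FPKM + 1, cKO against Control (3 libraries each), for each of the 10 genes with its 95% interval from limma. *Tdrd6* stands at -4.22, *Tdrd7* and *Tdrd5* near -0.90, and the intervals of *Tdrd9*, *Stk31*, *Rnf17* and *Tdrkh* include 0.

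The other 4 genes did not pass the test. *Tdrd9* (ENSMUSG00000054003; chromosome 12, plus strand, 111971559 to 112068854) encodes a helicase with a Tudor domain that acts with PIWIL4 in the silencing of LINE-1 elements. It had 47.5, 51.6 and 46.3 FPKM in Control and 46.5, 37.8 and 43.2 FPKM in cKO libraries, so that cKO replicate 1 lay within the Control range. The 95% interval of its log2 fold change was -0.41 to 0.031 (limma adjusted p = 0.16), which leaves room for a fall as large as that of *Tdrd1*.

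*Stk31* (ENSMUSG00000023403; chromosome 6, plus strand, 49395604 to 49469501) encodes a protein with a Tudor and a kinase domain. Its libraries overlapped, with 72.2, 65.9 and 74.9 FPKM in Control and 64.4, 86.8 and 70.9 FPKM in cKO. cKO replicate 2 was the highest of the 6 libraries. The 95% interval of the log2 fold change was -0.23 to 0.33 (limma adjusted p = 0.77).

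*Rnf17* (ENSMUSG00000000365; chromosome 14, plus strand, 56402581 to 56525032), also known as *Tdrd4*, encodes a RING finger protein that restrains piRNA amplification in meiotic cells. It had 41.7, 38.2 and 39.6 FPKM in Control and 41.7, 44.6 and 38.3 FPKM in cKO libraries, and the groups overlapped. The 95% interval of its log2 fold change was the narrowest of the 10, at -0.13 to 0.24 (limma adjusted p = 0.61).

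*Tdrkh* (ENSMUSG00000041912; chromosome 3, plus strand, 94413273 to 94434668) encodes a mitochondrial protein with KH and Tudor domains that takes part in piRNA trimming. It had 25.8, 23.1 and 25.4 FPKM in Control and 26.9, 31.4 and 26.4 FPKM in cKO libraries. Every cKO library lay above every Control library, yet the 95% interval of the log2 fold change was -0.034 to 0.39 (limma adjusted p = 0.17, and 0.030 to 0.38 over 15 alternative settings). Without overlap between the groups it was the only member with cKO above Control; 6 others had cKO below Control, so that 7 of the 10 genes did not overlap, against 50.4% of all genes tested. Of the 100-base windows of its transcripts, 32.8% also occur in *Oaz3* on the other strand. *Oaz3* had 23.6, 55.0 and 21.5 FPKM in Control and 1.71, 1.64 and 1.25 FPKM in cKO libraries, and if the counting did not use strand, fragments of *Oaz3* and *Tdrkh* could not be told apart in that stretch. For the other 8 genes, *Tdrd5* and *Tdrkh* aside, every window occurred in no other annotated gene.

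The stretches upstream of 4 genes are shown because they set a pair that fell (*Tdrd7* and *Tdrd12*) beside a pair that did not pass the test (*Tdrd9* and *Tdrkh*). They are the 250 bases before an annotated start in RefSeq on GRCm38.p6, with windows matched for 8 of the 10 genes; those of *Tdrd6* and *Rnf17* were not analysed here. Capitals mark NAACNG with C or T as the first base and T or G as the fifth, the recognition sequence of MYB factors, searched on both strands. The MYB factor MYBL1 (A-MYB) is a known activator of meiotic and piRNA pathway genes, and its gene was not called (14.9 to 22.0 FPKM in Control and 16.4 to 23.7 FPKM in cKO libraries). The windows lie at chr4:45965085-45965334 (plus strand) for *Tdrd7*, chr7:35537745-35537994 (minus strand) for *Tdrd12*, chr12:111971309-111971558 (plus strand) for *Tdrd9* and chr3:94412994-94413243 (plus strand) for *Tdrkh*.
Tdrd7: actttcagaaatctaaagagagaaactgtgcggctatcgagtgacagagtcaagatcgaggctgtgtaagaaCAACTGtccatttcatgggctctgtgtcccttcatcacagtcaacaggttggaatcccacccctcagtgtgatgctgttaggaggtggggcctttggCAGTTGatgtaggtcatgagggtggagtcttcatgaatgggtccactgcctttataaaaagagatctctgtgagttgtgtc
Tdrd12: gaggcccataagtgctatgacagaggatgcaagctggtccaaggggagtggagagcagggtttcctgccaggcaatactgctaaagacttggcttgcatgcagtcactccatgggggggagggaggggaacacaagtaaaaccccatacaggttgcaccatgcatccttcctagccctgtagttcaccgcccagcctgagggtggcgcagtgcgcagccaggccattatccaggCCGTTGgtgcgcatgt
Tdrd9: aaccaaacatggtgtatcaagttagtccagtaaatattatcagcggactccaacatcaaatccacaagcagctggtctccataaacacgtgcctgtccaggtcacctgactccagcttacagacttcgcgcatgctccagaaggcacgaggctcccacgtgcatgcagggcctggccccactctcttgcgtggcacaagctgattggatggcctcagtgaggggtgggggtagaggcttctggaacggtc
Tdrkh: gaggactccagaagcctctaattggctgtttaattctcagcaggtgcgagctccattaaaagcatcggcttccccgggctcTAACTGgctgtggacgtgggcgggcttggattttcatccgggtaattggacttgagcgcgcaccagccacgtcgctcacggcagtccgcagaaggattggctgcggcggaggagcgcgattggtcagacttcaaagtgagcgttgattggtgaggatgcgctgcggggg

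The sequence for *Tdrd7*, 1 of 3 windows matched for this gene, held 2 matches, 178 and 81 bases before the start. That for *Tdrd12*, 1 of 2 windows matched, held 1 match 16 bases before the start, and that for *Tdrkh* 1 match 169 bases before it. *Tdrd9* held none in this window. Over the 8 genes with a matched window, counting the 1 window used for each, 4 held a match, *Tdrd5* being the other, against 23.7% of 32851 such windows. The window of *Tdrd5* precedes a RefSeq start 316 bases inside the gene bounds given above, so it lies within those bounds. A match is a description of the letters only.

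The partners of the Tudor proteins were described from lists of other granule genes. Beside the counts in these lists, 22.2% of all genes tested were called lower and 11.8% higher. The calls of the partners are from the reported fit only and were not examined in the alternative settings. Where a list had 5 or fewer called genes, all of them are named; *Piwil2*, *Ddx25*, *Ddx6* and *Trp53bp1* among them, and *Piwil4* and *Prmt5*, which were not called, were chosen after their values were seen. Of the 3 PIWI genes, 2 fell. *Piwil1*, which encodes the PIWI protein of pachytene spermatocytes and round spermatids, had 67.5, 45.7 and 47.5 FPKM in Control and 2.69, 2.29 and 2.69 FPKM in cKO libraries (log2 fold change -3.92, limma adjusted p = 6.3e-06). *Piwil2*, the partner of TDRD1, fell by 0.30 on the log2 scale (limma adjusted p = 0.022). *Piwil4*, which acts in the nucleus of fetal germ cells, had group means of 1.89 FPKM (Control) and 2.87 FPKM (cKO) (limma adjusted p = 0.097).

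Among 14 genes of piRNA processing and silencing, 6 fell and 1 rose, with a median log2 fold change of -0.14. The largest fall was in *Gtsf1*, a zinc finger partner of PIWI proteins, with 45.8, 62.2 and 44.5 FPKM in Control and 20.9, 28.0 and 28.2 FPKM in cKO libraries (log2 fold change -0.95, limma adjusted p = 0.0050). The rise was in *Btbd18*, needed for transcription of pachytene piRNA loci (log2 fold change 0.29, limma adjusted p = 0.016). Of 4 genes for symmetric dimethylation of arginine, the mark that Tudor domains bind, *Coprs*, a cofactor of the methyltransferase PRMT5, fell (log2 fold change -0.51, limma adjusted p = 0.012). The methyltransferase gene *Prmt5* itself was not called, at 25.8 ± 0.583 FPKM in Control cells against 27.5 ± 1.94 FPKM in cKO cells (SD, n = 3).

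Among 7 other RNA-binding or helicase genes of germ granules, 2 fell and 2 rose. *Ybx2*, an mRNA-storing protein of later germ cells, fell by 1.66 on the log2 scale (limma adjusted p = 1.1e-05), from 399.7 to 444.4 FPKM in Control to 128.0 to 138.9 FPKM in cKO libraries. *Ddx25*, a helicase of the chromatoid body, fell by 1.02 (limma adjusted p = 3.1e-04). *Dazl* rose by 0.43 and *Ddx6* by 0.34 on the same scale (limma adjusted p = 0.016 and 0.010), and both encode RNA-binding regulators of translation.

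Of 8 genes in the table for other proteins with Tudor domains, which are widely expressed, 1 fell and 2 rose. *Akap1*, a mitochondrial anchor for protein kinase A, had 26.8, 51.2 and 26.6 FPKM in Control and 17.8, 13.7 and 15.5 FPKM in cKO libraries (log2 fold change -1.05, limma adjusted p = 0.019), and Control replicate 2, the library highest in spermatid markers, stood above the other Control libraries. The rises were in *Snd1*, a Tudor nuclease (log2 fold change 0.33, limma adjusted p = 0.018), and *Trp53bp1*, a reader of damaged chromatin (0.27, adjusted p = 0.037). The summed level of these 8 genes was 246.6 to 246.9 FPKM in Control and 249.6 to 265.8 FPKM in cKO libraries.

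**Figure D4:**
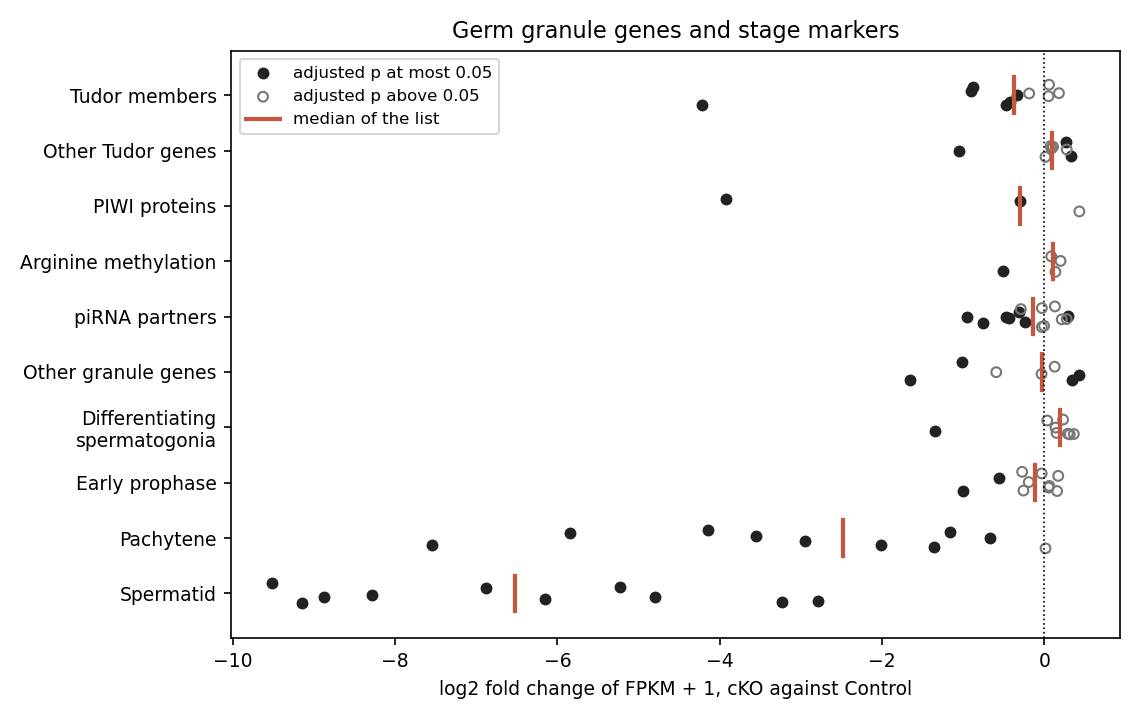
Log2 fold change of FPKM + 1, cKO against Control (3 libraries each), for the genes of each list that were tested, with filled points for an adjusted p of at most 0.05 and a bar at the list's median. The medians are -0.38 for the Tudor members, 0.098 for other Tudor genes, -0.30 for PIWI proteins, 0.11 for arginine methylation, -0.14 for piRNA partners, -0.035 for other granule genes, 0.19 for differentiating spermatogonia, -0.11 for early prophase, -2.48 for pachytene and -6.52 for spermatid markers.

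Markers of somatic cells were also measured. The summed level of 7 Sertoli cell markers was 57.4 to 86.2 FPKM in Control and 48.3 to 119.1 FPKM in cKO libraries, and the sums of 5 Leydig cell markers (2.95 to 14.0 and 6.34 to 10.7 FPKM) and 6 macrophage or blood markers (4.94 to 8.45 and 5.16 to 6.46 FPKM) also overlapped. The 5 peritubular markers summed to 3.69 to 6.44 FPKM in Control and 7.04 to 8.16 FPKM in cKO libraries. All 7 Sertoli cell markers reached the mean of 1 FPKM needed for the test, but only 2 of the 5 Leydig cell, 2 of the 5 peritubular and 2 of the 6 macrophage or blood markers did, and the others were not tested. Of the markers tested, 1 was called, *Rhox5* of Sertoli cells, which rose, and none of the lists' markers was at 0 in every library. Their part in the falls of the Tudor genes was not tested.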

How the data were processed

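RNA-seq of STRA8+ testis cells was deposited as a single table of FPKM per gene and library, with the gene length used. Per the labels the submitters' processing notes name HISAT2 2.0.5 and mm10, and the counting tool, the strand setting and the scaling are not given in the sources used here. Coordinates of the 10 genes were identical in GENCODE M21 (GRCm38). Multiplying FPKM by gene length and by a scaling constant estimated for each library returned whole fragment numbers for 100% of the values above 0 and up to 2000 fragments (tolerance 0.01). The deposited FPKM were used as log2(FPKM + 1) for 15451 genes whose mean reached 1 FPKM. The test was that of limma 3.58.1 (R 4.3.3; lmFit, eBayes with trend), and genes passed at a Benjamini-Hochberg adjusted p of at most 0.05. An exact permutation test of 3 against 3 libraries cannot give a p below 0.1 and was not used. All 6 libraries differed from each other and entered the reported fit, which had no term for the replicate number.

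The members, the lists and the tests were chosen with earlier results of these data known. The rule for named genes took all 10 members, *Srsf1*, the called gene with the largest rise and fall of each list of partners, and the 3 protein-coding genes nearest in profile to the called member with the largest change. Other genes named in the text, such as *Piwil4*, *Prmt5*, *Mybl1*, *Oaz3* and single stage or somatic markers, fall outside this rule and were chosen after their values were seen. *Tdrd10* and *Tdrd15*, listed among other Tudor genes, had no row and were not analysed here. The alternatives were another pseudocount, filter, scaling, variance model or unit, a replicate block and leaving out each library.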

Additional observations from a re-analysis of the deposited data

How the results depend on the processing

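*Tdrd5*, *Tdrd6* and *Tdrd7* were called lower in all 15 alternatives, with log2 fold changes from -0.97 to -0.66, from -6.27 to -3.80 and from -0.96 to -0.79. In place of 6 members called lower, 3 were called without a filter, 3 under quantile normalization and 3 with the replicate block, and 3 to 5 on leaving out a library; 1 member, *Tdrkh*, was called higher under quantile normalization (log2 fold change 0.29), which moved the median of all genes to 0.21. The calls lost were those of *Tdrd1*, *Tdrd3* and *Tdrd12*, and the cause was not tested. Without a filter and with the replicate block their log2 fold changes stayed at -0.33, -0.48 and -0.42, and only the adjusted p rose. Under quantile normalization the log2 fold changes of these genes were smaller falls, at -0.23, -0.15 and -0.28. *Stk31*, which was never called, ranged from -0.068 to 0.14 on leaving out a library and changed sign in 2 such fits. Over all genes, 3437 were called lower and 1821 higher. With a mean of at least 5 FPKM, 1950 were lower, from fewer genes tested. Quantile normalization gave 5164 higher, which is 67.1% of its calls against 34.6%, the replicate block 891, and leaving out a library 965 to 1752 higher and 2763 to 3202 lower.

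The replicate numbers were not taken to pair the libraries: same-numbered libraries had correlations of their deviations from the group means of -0.11 to 0.016, and 1 of 6 libraries correlated best with its own number. The level of *Tdrd6* rested on 24 to 36 fragments per cKO library.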

Other observations

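Of all protein-coding genes tested outside the 10 members, the profile nearest to that of *Tdrd6* over the 6 libraries was that of *Slc2a3*, which encodes the glucose transporter GLUT3, at a Euclidean distance of 0.18 between log2(FPKM + 1) profiles centred on their means. *Slc2a3* had 84.3, 58.1 and 63.3 FPKM in Control and 2.995, 2.71 and 3.16 FPKM in cKO libraries, so that Control replicate 1 was highest, as for *Tdrd6*. *Ccdc60* followed at a distance of 0.21, with 24.0, 20.7 and 20.2 FPKM in Control and 0.230, 0.0726 and 0.154 FPKM in cKO libraries. *Fam181a* was the third, also at 0.21, with 19.1, 16.1 and 15.9 FPKM in Control libraries, and was listed at 0 in cKO replicates 1 and 2 and at 0.0856 FPKM in cKO replicate 3. The likeness rests on 6 libraries and mostly on the gap between the groups.

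Within the annotated bounds of *Tdrd5*, *4930518J20Rik* on the other strand had 6.04, 7.15 and 5.36 FPKM in Control libraries and was listed at 0, 0.0462 and 0.0445 FPKM in cKO replicates 1, 2 and 3. Its direction was that of *Tdrd5*, and the part of shared fragments in the fall of *Tdrd5* was not tested.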
